A study of Mus musculus with 6 samples.

Results

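Enzymes that attach, remove or oxidise acyl groups on coenzyme A (CoA) were examined in mouse brown adipose tissue (BAT), which burns fatty acids to produce heat. The group consists of the acyl-CoA synthetases (Acsl, Acsm, Acss, Acsf and Acsbg), the acyl-CoA thioesterases (Acot) and the acyl-CoA dehydrogenases (Acad), taken from the table by gene symbol. It held 41 of 35976 rows, namely 40 enzyme genes (17 synthetases, 13 thioesterases and 10 dehydrogenases) and Acss2os, a long noncoding RNA antisense to Acss2 whose symbol matched the same pattern. Tissue came from 3 AKO mice, in which floxed Cars2 was deleted through Adiponectin-Cre, and from 3 WT littermates, the floxed controls without the knockout. Adiponectin-Cre is active in fat cells generally, not in brown fat alone, and the other cells of the tissue keep Cars2. All 6 animals were kept at 4 °C for 4 h before the tissue was frozen, so every library carries the cold exposure and none is from a warm animal. The methods give 1 age range for all mice of the study and name male mice for its feeding experiments, but state neither age nor sex for these 6 animals. The labels mark the libraries as separate samples of each genotype without naming the animals, so the p-values measure the spread between these samples. The comparison asks how loss of Cars2, which encodes the mitochondrial cysteinyl-tRNA synthetase and is studied as an enzyme of cysteine persulfide synthesis, bears on acyl-CoA enzyme mRNAs during acute cold.

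Fatty acids cannot be burned or esterified until a synthetase has joined them to CoA. Thioesterases undo that step and release free fatty acid and CoA, in the cytosol, the mitochondrion or the peroxisome depending on the enzyme. Dehydrogenases catalyse the first step of each round of mitochondrial beta-oxidation, and each prefers a range of chain lengths. In brown fat, fatty acids released from lipid droplets in the cold are both the fuel for heat production and activators of uncoupling protein 1, so the balance of activation, hydrolysis and oxidation sets how they are used.

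The sequences that bear most on the result belong to the Acot cluster on chromosome 12 (GRCm38.p6), where Acot2 (83987861 to 83993877), Acot1 (84009502 to 84017670), Acot4 (84037254 to 84044723), Acot3 (84052144 to 84060400), Acot5 (84069077 to 84076024) and Acot6 (84100654 to 84109783) lie in a row. Acot1 and Acot2 are close copies that moved in opposite directions, so a stretch of their coding sequence is shown to let differences be seen. The stretch differs more than the coding sequences as a whole, which were 95.5% identical. It comes from the longest reading frame of the GENCODE M21 transcripts, bases 946 to 1005 of Acot2 and bases 823 to 882 of Acot1, counted from the start codon, and capitals mark the 13 bases that differ.
Acot2: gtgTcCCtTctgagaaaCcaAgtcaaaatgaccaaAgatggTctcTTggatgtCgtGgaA
Acot1: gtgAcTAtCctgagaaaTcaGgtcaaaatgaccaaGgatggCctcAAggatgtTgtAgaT

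Over 1239 aligned bases the coding sequences of Acot1 and Acot2 were 95.5% identical, and their longest identical run was 273 bases. Other pairs of the cluster ranged from 75.9% (Acot3 with Acot4) to 85.8% (Acot3 with Acot5). Of the stretches of 100 bases in Acot2 transcripts, 17.1% also occurred in another gene, all of them in Acot1, so part of the reads of these genes cannot be placed with certainty. None of the sources used here says how reads that match several genes were counted. The promoters of the cluster were much less alike than the coding sequences, at 58.6% to 65.8% of aligned bases for Acot1 to Acot5. The RefSeq windows (GRCm38.p6, plus strand, 250 bases before to 50 after the start) are shown for Acot2, which rose, and for Acot1 and Acot4, which fell. They lie at chr12:83987611-83987910, chr12:84009252-84009551 and chr12:84038129-84038428, and capitals mark the motif match described below. The Acot4 window lies within its gene, which begins at 84037254, so the start it uses is not the first base of the gene.
Acot2: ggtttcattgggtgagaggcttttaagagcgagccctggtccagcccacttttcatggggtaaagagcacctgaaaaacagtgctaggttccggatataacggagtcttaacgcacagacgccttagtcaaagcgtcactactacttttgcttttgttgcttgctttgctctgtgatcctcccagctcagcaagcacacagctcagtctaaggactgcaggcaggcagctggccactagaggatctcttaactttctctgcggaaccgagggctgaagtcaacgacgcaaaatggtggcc
Acot1: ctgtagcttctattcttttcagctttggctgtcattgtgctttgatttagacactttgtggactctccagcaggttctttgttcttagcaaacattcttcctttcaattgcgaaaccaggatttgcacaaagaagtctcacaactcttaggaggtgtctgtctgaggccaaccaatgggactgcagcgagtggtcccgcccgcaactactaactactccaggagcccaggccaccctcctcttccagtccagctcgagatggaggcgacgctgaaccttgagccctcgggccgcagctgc
Acot4: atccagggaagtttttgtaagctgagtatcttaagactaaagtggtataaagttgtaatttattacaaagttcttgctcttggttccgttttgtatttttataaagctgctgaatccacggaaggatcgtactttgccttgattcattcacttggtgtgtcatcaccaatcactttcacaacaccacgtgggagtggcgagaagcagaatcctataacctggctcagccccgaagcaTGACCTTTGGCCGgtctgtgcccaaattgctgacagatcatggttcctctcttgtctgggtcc

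The motif searched is the direct repeat bound by PPAR with RXR, AGGTCA followed by any 1 base and AGGTCA again, with at most 2 mismatches and on both strands. It was found in 3.87% of all 32544 promoter windows of 300 bases. Of 36 members with a window, 2 held a match. The match in Acot4 began at position -13 from the start used for its window, on the minus strand, with 2 mismatches. That in Acot12, a gene not called, began at position -110 with 1 mismatch. Of 15 lower members with a window 1 held a match, and no window of a member that rose had one. These numbers are too small to set the lower members against those that rose. The motif of EBF factors, TCCC and GGGA with any 2 bases between, was present in 0.913% of all windows and in 1 member, Acsm4, for which no read was counted. A match describes these letters only, and the window leaves out distal sites.

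The libraries held 6540619 to 8461685 counts. Levels are given in CPM, the counts of a gene relative to a TMM-corrected library size, and each fold change is a log2 value of AKO over WT with its standard error (SE) from edgeR. Cars2 itself was at 220, 248 and 132 CPM in AKO libraries, against 786, 459 and 632 CPM in WT libraries, so the groups did not overlap (log2 fold change -1.64 ± 0.23, edgeR adjusted p = 0.000192). Across 13007 genes tested, 37.6% were called at an adjusted p under 0.05, 20.2% higher and 17.5% lower in AKO. Markers of brown adipocytes were lower in AKO for 6 of 6 genes, with summed levels of 6376 to 9931 CPM in AKO and 20315 to 21346 CPM in WT. The largest part of these sums was Ucp1, with a mean of 4654 CPM in AKO and 14912 CPM in WT. The 6 log2 fold changes ranged from -1.83 (Elovl3) to -0.38 (Cidea). Markers of general adipocytes were lower for 3 of 6 genes, with summed levels of 8947 to 12717 CPM in AKO and 14176 to 16532 CPM in WT, of which Fabp4 was the largest part. By contrast, 8 of 8 macrophage markers were higher (summed 756 to 1045 CPM in AKO, 199 to 236 CPM in WT), as were 8 of 8 skeletal muscle markers (747 to 1592 CPM in AKO, 53.0 to 347 CPM in WT) and 5 of 5 fibroblast markers (1532 to 1953 CPM in AKO, 533 to 839 CPM in WT). Of 4 endothelial markers 1 was lower and none higher, of 3 Schwann cell markers 1 was lower, and the only T cell marker tested, Cd2, was higher. No marker of B cells (summed 0.480 to 9.11 CPM in AKO, 1.02 to 1.91 CPM in WT) or of hepatocytes (0.127 to 0.480 CPM in AKO, 0.600 to 1.27 CPM in WT) had enough counts to be tested. None of the defining muscle or macrophage markers was at 0 in any library. In bulk tissue, fewer cells of a type and less RNA per cell cannot be told apart, and the part of these other cells in the results below was not tested.

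The long-chain synthetases Acsl1 and Acsl5 and the acetyl-CoA synthetase Acss1 fell while Acsl3 rose, Acot1, Acot4, Acot5 and Acot6 of the chromosome 12 cluster fell while Acot2 rose, and 7 of 10 dehydrogenases fell. Of 33 members with enough counts to test, 16 were lower in AKO (48.5%, against 17.5% of all genes), 3 were higher (9.09%, against 20.2% of all genes) and 14 were not called. The median log2 fold change of the tested members was -0.43, beside 0.0088 over all genes tested. In 22 of the 33 the AKO and WT libraries did not overlap, which was 66.7% of them and 50.1% of all genes. Abundant genes of the whole table were more often lower: 1419 had a mean level of 100 CPM or more, and of these 39.4% were lower and 10.6% higher. Of the 13 members at that level, 9 were lower and 1 was higher. Of the 20 tested members under it, 7 were lower (35%) and 2 were higher (10%). These stand beside 17.5% lower and 20.2% higher over genes of any level, as the shares under 100 CPM alone were not computed. A list that the study made of genes reduced in Cars2 and Ebf2 knockouts contains 6 of the lower members (Acot11, Acss1, Acot8, Acads, Acad8 and Acadl). That list was drawn partly from these samples and is not independent evidence, and outside it 10 of 27 tested members were lower and 3 were higher.

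**Figure D1:**
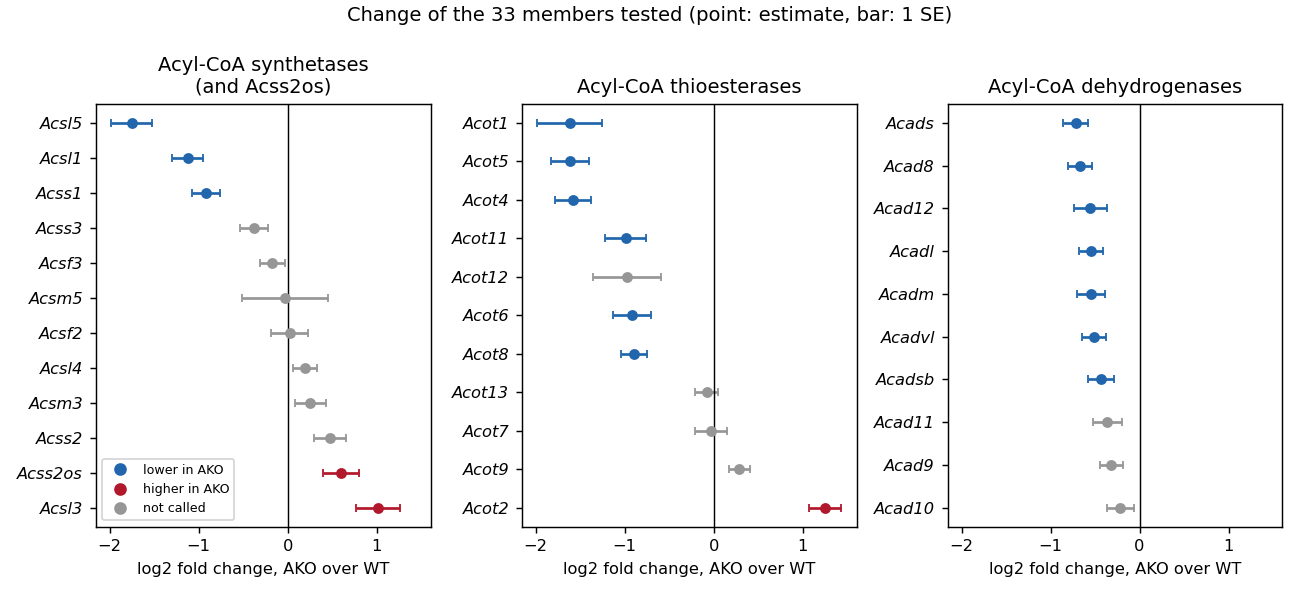
Log2 fold change of AKO over WT (x axis) with 1 SE for each of the 33 members tested, by enzyme class; blue points passed an edgeR adjusted p under 0.05 as lower, red points as higher, and grey points did not pass. All 10 dehydrogenases lie left of 0. A negative estimate was found for 49.4% of all genes tested and for 71.9% of those with a mean of 100 CPM or more. The synthetases and thioesterases spread from -1.75 (Acsl5) to 1.25 (Acot2).

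Summed over all 40 enzymes, mRNA reached 7579 ± 670 CPM in AKO and 12076 ± 1060 CPM in WT (SD, n = 3 each), a ratio of 0.628. The synthetases summed to 2563 ± 446 CPM in AKO and 4973 ± 341 CPM in WT. The dehydrogenases summed to 4390 ± 343 CPM in AKO and 6341 ± 649 CPM in WT. The thioesterases differed least, at 626 ± 79.8 CPM in AKO and 763 ± 102 CPM in WT, a sum that holds the gain of Acot2 beside the losses of other members. These sums describe the libraries and were not tested. Per kilobase of the longest protein-coding transcript, the most abundant members in AKO were Acadvl (711 ± 46.6 CPM per kb), Acadl (659 ± 73.7), Acadm (465 ± 74.4) and Acsl1 (425 ± 97.0). In WT, Acadvl (1012 ± 95.04 CPM per kb), Acadl (962 ± 85.1) and Acsl1 (926 ± 63.7) led and were within their spread of each other, followed by Acadm (679 ± 94.99). Acsl1 stood level with Acadl in WT and below it in AKO.

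Among the synthetases, 3 of the 11 tested fell and 1 rose. The largest fall was that of Acsl5 (chromosome 19, 55251861 to 55296628), a long-chain synthetase of mitochondria and endoplasmic reticulum. It was at 197, 140 and 151 CPM in AKO libraries, against 338, 647 and 662 CPM in WT libraries. Every AKO library lay below every WT library, although the first WT library was well under the other two. The log2 fold change was -1.75 ± 0.23 (edgeR adjusted p = 0.000107), an estimated 29.6% of the WT level. Acsl1 (chromosome 8, 46471037 to 46536051), the main long-chain synthetase of fat cells and known in mice to be needed for fatty acid oxidation in brown fat, was the most abundant synthetase. It was at 1947, 1791 and 1228 CPM in AKO libraries, against 3747, 3755 and 3321 CPM in WT libraries. The groups were far apart, and the estimate was 45.9% of the WT level (log2 fold change -1.12 ± 0.17, edgeR adjusted p = 0.000336). Of the exon bases of Acsl1, 9.9% are shared with the antisense gene Gm45244, and those of Acsl5 overlap Zdhhc6 over 8.3%.

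Acsl3 (chromosome 1, 78657825 to 78707743), a synthetase of the endoplasmic reticulum and of growing lipid droplets, went the other way from Acsl1 and Acsl5. Its levels were 33.7, 34.4 and 63.2 CPM in AKO libraries, against 18.6, 28.1 and 18.0 CPM in WT libraries. The groups did not overlap, and the third AKO library stood above the other two (log2 fold change 1.01 ± 0.24, edgeR adjusted p = 0.00611), and without AKO replicate 3 the log2 fold change was 0.66. Acsl3 made up 1.52, 1.71 and 4.26% of Acsl counts in AKO libraries, against 0.449, 0.631 and 0.446% in WT libraries, so the AKO share was largest in that same library. Acsl4, which prefers arachidonic acid, was at 35.8 to 43.6 CPM in AKO libraries and 30.3 to 37.3 CPM in WT libraries and was not called. Acsl1 kept a similar share of Acsl counts, 86.6 ± 3.34% in AKO and 85.6 ± 4.32% in WT, while the whole family summed to 1902 ± 377 CPM in AKO and 4213 ± 220 CPM in WT.

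Of the 3 Acss genes, which activate acetate and other short chains, only Acss1 passed the test. Acss1 (chromosome 2, 150618111 to 150668240), the mitochondrial enzyme, was at 168, 191 and 163 CPM in AKO libraries, against 250, 387 and 348 CPM in WT libraries. It fell without overlap (log2 fold change -0.91 ± 0.16, edgeR adjusted p = 0.000808). Acss2, the cytosolic and nuclear enzyme that supplies acetyl-CoA for lipid synthesis, was at 226, 192 and 163 CPM in AKO libraries, against 111, 181 and 127 CPM in WT libraries. The ranges overlapped, and the difference did not pass the test (log2 fold change 0.47, 95% interval 0.09 to 0.86, edgeR adjusted p = 0.0535), but passed it without AKO replicate 3 or without WT replicate 2. Within the 3 Acss genes, Acss2 took 49.7 ± 4.47% of counts in AKO and 28.1 ± 2.59% in WT, and Acss1 took 44.9 ± 3.56% in AKO and 66.3 ± 2.53% in WT. These shares were computed after the opposite signs of both genes had been seen and were not tested. Acss2os was at 35.3, 28.1 and 23.9 CPM in AKO libraries, against 13.6, 23.3 and 21.0 CPM in WT libraries, and rose by a log2 fold change of 0.60 ± 0.20 (edgeR adjusted p = 0.0352). The call was lost without AKO replicate 1, WT replicate 1 or WT replicate 3. Of its exon bases 53.3% overlap Acss2 on the opposite strand, and as no source says whether strand was used in counting, reads from that part cannot be told from those of Acss2. Acss3, a mitochondrial enzyme that uses propionate, was at 18.1 to 23.5 CPM in AKO libraries and 22.8 to 31.2 CPM in WT libraries and was not called. Ppfia2 overlaps 33.9% of its exon bases on the opposite strand.

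Other synthetases gave no call. Acsf2, a mitochondrial enzyme for medium chains, was at 136, 100 and 94.4 CPM in AKO libraries, against 72.4, 138 and 115 CPM in WT libraries. Its ranges overlapped fully, with a log2 fold change of 0.02 (95% interval -0.43 to 0.48), and 19.0% of its stretches of 100 bases also occur in Gm5540. Acsf3, the mitochondrial malonyl-CoA synthetase, was at 75.3, 61.9 and 61.9 CPM in AKO libraries, against 65.8, 84.9 and 73.6 CPM in WT libraries (log2 fold change -0.17, 95% interval -0.47 to 0.12). Acsm3, of the medium-chain family, was at 81.5, 122 and 74.9 CPM in AKO libraries, against 68.5, 77.5 and 87.6 CPM in WT libraries (log2 fold change 0.26, 95% interval -0.13 to 0.64), with 39.7% of its exon bases overlapped by Eri2 on the other strand. Acsm5 was under 3 CPM in every library and was not called. No read was counted in any library for the neighbouring genes Acsm1, Acsm2 and Acsm4.

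**Figure D2:**
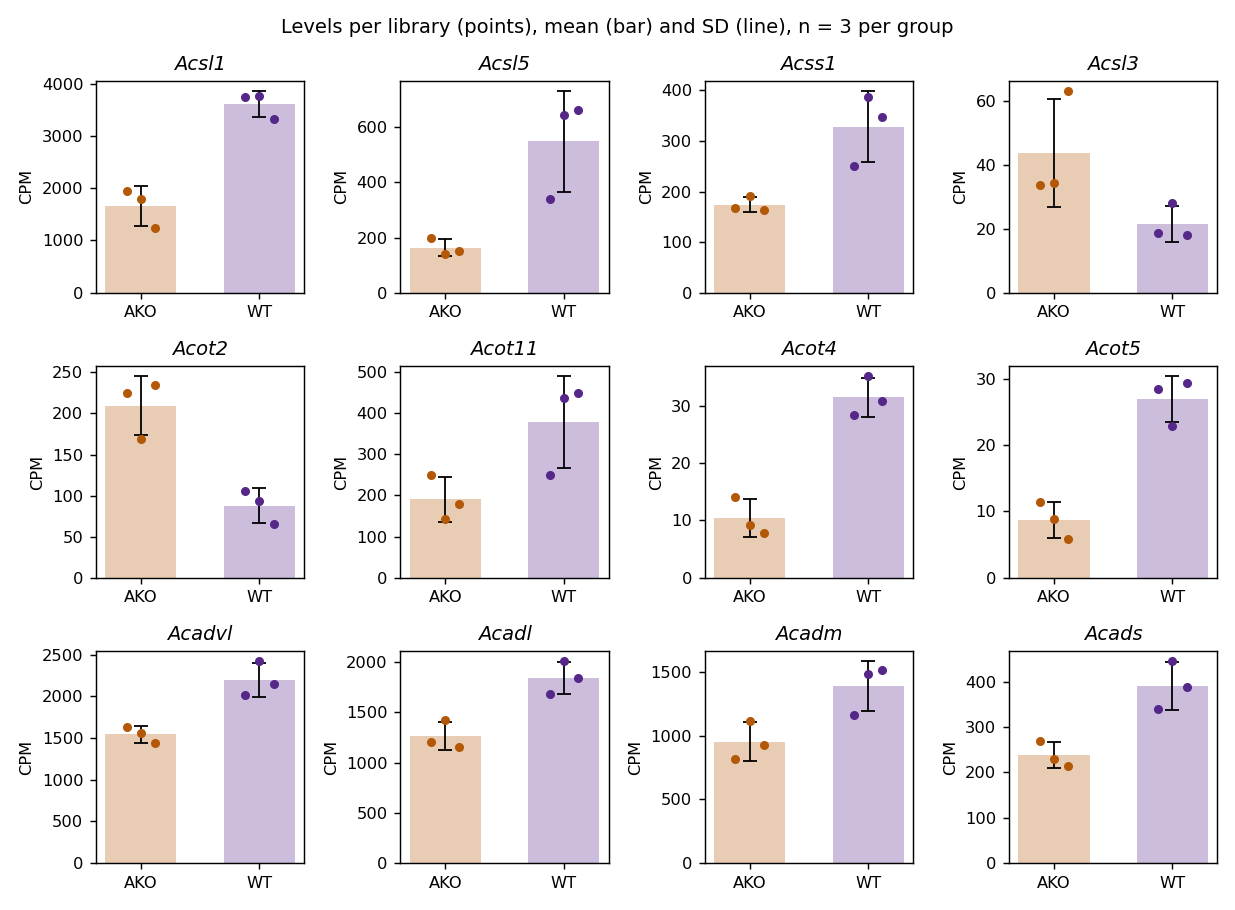
CPM (y axis, from 0) of 12 members in each AKO and WT library (points), with the group mean (bar) and SD (line), n = 3 per group. Acsl3 and Acot2 are higher in AKO and the other 10 members are lower; the AKO and WT points of Acot11 almost touch, at 249.56 CPM in AKO replicate 1 and 249.79 CPM in WT replicate 1.

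Of the 11 thioesterases tested, 6 fell and 1 rose, and the members that fell included all 4 other tested genes of the chromosome 12 cluster. Acot2, the mitochondrial matrix enzyme of that cluster, was at 225, 169 and 235 CPM in AKO libraries, against 106, 93.2 and 64.9 CPM in WT libraries. Every AKO library was above every WT library, with a log2 fold change of 1.25 ± 0.18 (edgeR adjusted p = 0.000232), an estimated 2.38-fold. Acot1, its cytosolic copy, was at 14.5, 4.32 and 5.12 CPM in AKO libraries, against 21.5, 34.4 and 18.6 CPM in WT libraries. The first AKO library came nearest to the WT range without reaching it (log2 fold change -1.62 ± 0.37, edgeR adjusted p = 0.00446), and without AKO replicate 1 the log2 fold change was -2.39. Given the identity of both genes, their counts were also added: Acot1 and Acot2 together came to 240.0, 173 and 239.7 CPM in AKO libraries, against 127, 128 and 83.5 CPM in WT libraries, so the sum was higher in each AKO library for any split of the counted reads between them.

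Acot4, a peroxisomal thioesterase in mice with activity on succinyl-CoA, was at 14.2, 9.27 and 7.83 CPM in AKO libraries, against 28.3, 35.1 and 30.9 CPM in WT libraries. The groups did not overlap (log2 fold change -1.58 ± 0.20, edgeR adjusted p = 9.11e-05). Of the exon bases of Acot4, 9.2% are shared with the antisense gene 4732463B04Rik. Acot5, another peroxisomal member, behaved in the same way, with 11.4, 8.89 and 5.84 CPM in AKO libraries, against 28.4, 22.9 and 29.4 CPM in WT libraries. It was at an estimated 32.7% of the WT level (log2 fold change -1.61 ± 0.21, edgeR adjusted p = 0.00012). Acot6 was low, with 4.20, 4.19 and 5.12 CPM in AKO libraries, against 8.99, 7.26 and 9.29 CPM in WT libraries, and fell without overlap (log2 fold change -0.92 ± 0.22, edgeR adjusted p = 0.00523). Acot3 had 2 to 4 reads in each AKO library and 1 to 5 in each WT library and was not tested.

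Acot2 made up most of the counts of Acot1 to Acot6 in AKO, at 83.4, 86.2 and 90.6%, against 54.7, 48.2 and 42.3% in WT libraries. Per length of transcript, the shares were 88.6 ± 3.47% in AKO and 52.0 ± 6.05% in WT (SD, n = 3 each). Without Acot2, the tested genes of the cluster (Acot1, Acot4, Acot5 and Acot6) summed to 44.3, 26.7 and 23.9 CPM in AKO libraries, against 87.2, 99.7 and 88.1 CPM in WT libraries. Acot2 and its neighbours separated the groups in opposite directions. These sums and shares were chosen after the direction of each gene was known and carry no test.

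**Figure D3:**
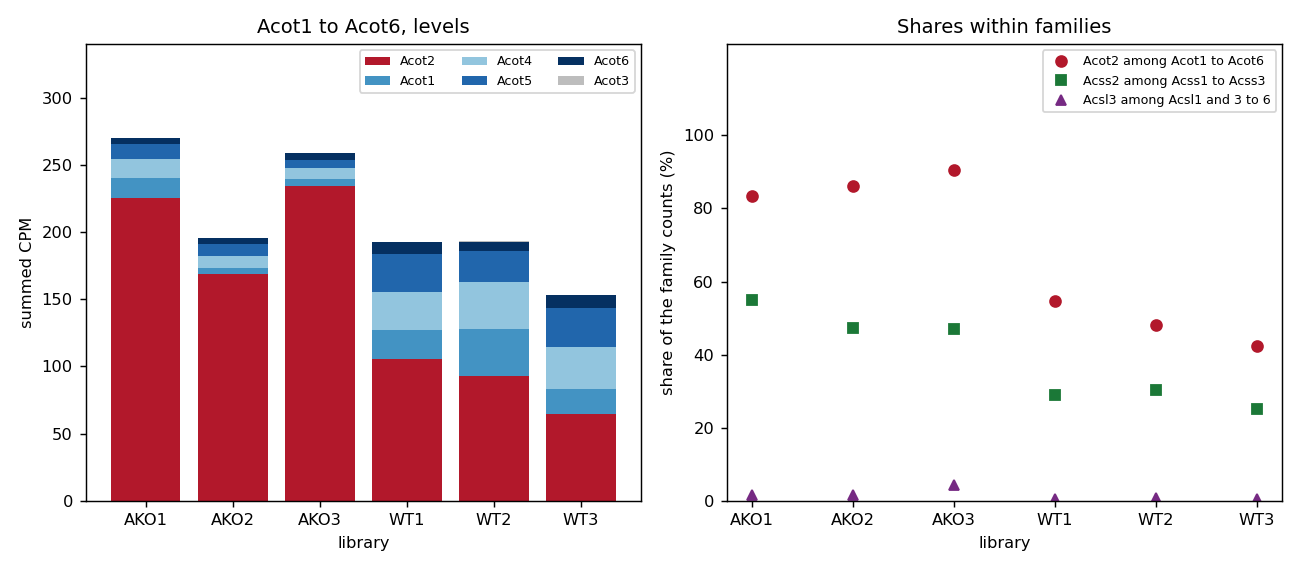
Left, CPM of Acot1 to Acot6 stacked for each library (y axis, summed CPM); right, the share of family counts in percent for Acot2 among Acot1 to Acot6, Acss2 among Acss1 to Acss3, and Acsl3 among the Acsl genes. Acot2 takes 83.4 to 90.6% of its cluster in AKO libraries and 42.3 to 54.7% in WT libraries, and the mean levels of Acot1, Acot4, Acot5 and Acot6 are lower in AKO.

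Outside the cluster, Acot11 (chromosome 4, 106744555 to 106805007), known as the brown fat inducible thioesterase because cold raises it in mouse BAT, had the most counts of any thioesterase in WT, although per kilobase of transcript Acot13 stood higher (140 ± 14.2 CPM per kb in WT, against 66.4 ± 19.5 for Acot11). Acot11 was at 249.56, 142 and 180 CPM in AKO libraries, against 249.79, 437 and 447 CPM in WT libraries. The lowest WT and the highest AKO library were nearly equal, while the other 4 were well apart (log2 fold change -0.99 ± 0.23, edgeR adjusted p = 0.00513). Its exons overlap Fam151a over 20.9% of their bases. Acot11 made up 30.0 ± 4.79% of all thioesterase counts in AKO and 48.8 ± 9.26% in WT, and Acot2 33.4 ± 3.65% in AKO and 11.8 ± 4.10% in WT. Acot8, a peroxisomal enzyme that accepts many chain lengths, was at 21.1, 17.3 and 16.2 CPM in AKO libraries, against 37.4, 33.6 and 30.6 CPM in WT libraries, and fell without overlap (log2 fold change -0.89 ± 0.15, edgeR adjusted p = 0.000642). Snx21 overlaps 12.3% of its exon bases on the opposite strand.

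Acot13, a small thioesterase associated with mitochondria, was at 88.3, 108 and 91.4 CPM in AKO libraries, against 93.4, 113 and 97.4 CPM in WT libraries. The ranges overlapped, and the 95% interval of the log2 fold change was -0.36 to 0.21, around an estimate of -0.08. Acot9, a mitochondrial enzyme, was at 53.8, 65.0 and 58.2 CPM in AKO libraries, against 50.01, 47.9 and 46.8 CPM in WT libraries. Its groups did not overlap, but the difference did not pass the test (log2 fold change 0.29, 95% interval 0.03 to 0.55, edgeR adjusted p = 0.0785). Acot7, a cytosolic enzyme best known from brain, was at 18.2 to 23.2 CPM in AKO libraries and 16.5 to 24.3 CPM in WT libraries. Acot12, a cytosolic acetyl-CoA hydrolase of liver, stayed under 1 CPM in AKO libraries and between 1.37 and 2.04 CPM in WT libraries and was not called (log2 fold change -0.97 ± 0.38, edgeR adjusted p = 0.061).

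The dehydrogenases were the most uniform class. All 10 had a negative estimate, from -0.72 to -0.21 on the log2 scale, with a median of -0.53. Of these, 7 fell, 3 were not called and none rose. Abundant genes also leaned this way: of all genes with a mean of 100 CPM or more, 71.9% had a negative estimate, with a median of -0.25, and 39.4% were lower. The 4 enzymes of straight-chain fatty acids were at an estimated 70.3% (Acadvl), 68.5% (Acadl), 68.5% (Acadm) and 60.9% (Acads) of the WT level, and differences between them were not tested. Acadvl (chromosome 11, 70010183 to 70015428), which handles very long chains at the inner mitochondrial membrane, was at 1637, 1554 and 1436 CPM in AKO libraries, against 2016, 2419 and 2145 CPM in WT libraries (log2 fold change -0.51 ± 0.13, edgeR adjusted p = 0.00967). On the opposite strand, Dvl2 overlaps 42.9% of its exon bases. Acadl (chromosome 1, 66830839 to 66863309), for long chains, was at 1205, 1423 and 1158 CPM in AKO libraries, against 1682, 2008 and 1841 CPM in WT libraries (log2 fold change -0.55 ± 0.14, edgeR adjusted p = 0.00783). Acadm (chromosome 3, 153922353 to 153944643), for medium chains, was at 817, 1117 and 924 CPM in AKO libraries, against 1167, 1483 and 1520 CPM in WT libraries. Its groups were the closest of these 4, with the second AKO library just below the first WT library (log2 fold change -0.55 ± 0.16, edgeR adjusted p = 0.0152), and the call was lost without WT replicate 2 or WT replicate 3 (adjusted p at most 0.0669). Acads (chromosome 5, 115110299 to 115119346), for short chains, was at 269, 230 and 215 CPM in AKO libraries, against 339, 445 and 388 CPM in WT libraries (log2 fold change -0.72 ± 0.14, edgeR adjusted p = 0.00182). None of the 4 overlapped between groups, and their sum was 3995 ± 302 CPM in AKO and 5818 ± 579 CPM in WT.

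Acad8 and Acadsb, dehydrogenases of branched-chain amino acid breakdown, fell as well, and so did Acad12. Acad8, the isobutyryl-CoA dehydrogenase of valine breakdown, was at 32.5, 31.5 and 27.8 CPM in AKO libraries, against 42.3, 55.4 and 48.4 CPM in WT libraries (log2 fold change -0.67 ± 0.14, edgeR adjusted p = 0.00255). Acadsb, which acts on the short branched acyl-CoA of isoleucine, was at 110, 158 and 137 CPM in AKO libraries, against 165, 189 and 193 CPM in WT libraries (log2 fold change -0.43 ± 0.15, edgeR adjusted p = 0.032). Acad12 was at 12.1, 16.5 and 11.1 CPM in AKO libraries, against 17.1, 22.9 and 18.3 CPM in WT libraries (log2 fold change -0.55 ± 0.19, edgeR adjusted p = 0.0361). In all 3 the groups were separate, but the calls of Acadsb and Acad12 were each lost under 7 of 14 alternative settings, among them without AKO replicate 1, AKO replicate 3, WT replicate 2 or WT replicate 3. Acad12 and its neighbour Acad10 share 16.8% of the stretches of 50 bases in Acad10 transcripts. Acad11, which acts on long chains and hydroxy acids, was at 122, 169 and 136 CPM in AKO libraries, against 149, 224 and 177 CPM in WT libraries, and was not called (log2 fold change -0.36, 95% interval -0.72 to -0.0036, edgeR adjusted p = 0.104). Acad9, an assembly factor of complex I, was at 40.3 to 41.4 CPM in AKO libraries and 44.2 to 55.8 CPM in WT libraries, and Acad10 was at 27.1 to 36.3 CPM in AKO libraries and 33.3 to 43.5 CPM in WT libraries; neither was called.

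The 8 members left out of the test had few reads or none. Acsbg1 had 5 or 6 reads in each AKO library and 8 or 10 in each WT library. Acsl6 had 4, 7 and 5 reads in AKO libraries, against 3, 0 and 0 in WT libraries. Acot10 and Acsbg2 had at most 1 read in any library, and Acot3 and the Acsm1, Acsm2 and Acsm4 genes are described above.

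Genes that act next to these enzymes were read from lists of the same pathway. Of all genes tested, 17.5% were lower and 20.2% higher, and of those with a mean of 100 CPM or more, 39.4% were lower and 10.6% higher. Among fatty acid transport proteins that also activate very long chains, 2 of 4 tested fell and none rose: Slc27a2 averaged 109 CPM in AKO and 513 CPM in WT (log2 fold change -2.23 ± 0.17, edgeR adjusted p = 4.6e-06), and Slc27a4 averaged 30.8 CPM in AKO and 61.3 CPM in WT (-0.99 ± 0.16). Of 8 genes of the carnitine shuttle, which carries acyl groups into mitochondria, 4 fell and 2 rose. Cpt1a, an outer membrane carnitine palmitoyltransferase and the liver form of the enzyme, averaged 34.3 CPM in AKO and 14.7 CPM in WT (log2 fold change 1.22 ± 0.17). The carnitine-acylcarnitine translocase Slc25a20 averaged 375 CPM in AKO and 638 CPM in WT (log2 fold change -0.76 ± 0.14). Crot, the peroxisomal carnitine octanoyltransferase, averaged 25.0 CPM in AKO and 11.3 CPM in WT (log2 fold change 1.15 ± 0.21).

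Electrons from the dehydrogenases pass through the electron transfer flavoprotein to its oxidoreductase Etfdh. Of these 3 genes only Etfdh fell, averaging 407 CPM in AKO and 824 CPM in WT (log2 fold change -1.02 ± 0.12, edgeR adjusted p = 6.75e-05), while Etfa averaged 608 CPM in AKO and 722 CPM in WT and Etfb 690 CPM in AKO and 756 CPM in WT. Of 9 genes of the later steps of beta-oxidation 4 fell and none rose, and all estimates were negative with a median of -0.34. All 9 averaged over 100 CPM, and of all genes at that level 39.4% were lower and 71.9% had a negative estimate, with a median of -0.25. Those that fell included Hadhb, a subunit of the trifunctional protein (log2 fold change -0.55 ± 0.14), and the enzymes Ech1 (-0.46 ± 0.14) and Eci2 (-0.42 ± 0.13), which shift double bonds of unsaturated chains. Both other acyl-CoA dehydrogenases, Ivd of leucine breakdown (-0.78 ± 0.17 on the log2 scale) and Gcdh of lysine breakdown (-0.50 ± 0.14), fell. Acox2, a peroxisomal oxidase known for bile acid precursors and branched chains, rose (log2 fold change 2.62 ± 0.41, mean 4.30 CPM in AKO and 0.682 CPM in WT).

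Among genes that make, degrade or bind CoA, 5 of 10 fell and none rose. Pank1, a pantothenate kinase and so an enzyme of the first step of CoA synthesis, averaged 254 CPM in AKO and 526 CPM in WT (log2 fold change -1.05 ± 0.13). Nudt19, a peroxisomal CoA hydrolase, had a log2 fold change of -0.82 ± 0.15. Dbi, the acyl-CoA binding protein, averaged 737 CPM in AKO and 1215 CPM in WT (log2 fold change -0.72 ± 0.17). Of the other thioesterases, Them4 averaged 15.7 CPM in AKO and 24.9 CPM in WT and fell, and Them6 averaged 2.81 CPM in AKO and 1.41 CPM in WT and was not called. Of 8 regulators known to act on genes of fatty acid oxidation or of brown fat, 3 fell and 1 rose. Esrra, a nuclear receptor of oxidative metabolism, fell with a log2 fold change of -1.02 ± 0.16, and Pparg, the main adipocyte nuclear receptor, rose with 0.48 ± 0.12. Rxra, the partner of PPAR proteins on DNA, fell with -0.45 ± 0.12.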

How the data were processed

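RNA from BAT of 3 AKO and 3 WT mice was extracted with Trizol, enriched for polyadenylated mRNA and sequenced as DNA nanoballs. The authors deposited raw counts per gene, as whole numbers with no normalization, and no sample column was left unused. The study's methods name STAR, HTSeq and DESeq2, whereas the submitters' processing notes list Bowtie2, DESeq2 1.4.5, the build mm10 and RSEM 1.3.1, with no role for any. None of these sources states the strand setting, the annotation release or how reads matching several genes were treated, so reads of close copies or overlapping genes could have been lost or placed on either gene.

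Total counts were 6540619 to 8461685 per library, with 17714 to 18862 genes detected. No 2 libraries of the same genotype agreed within counting noise (chi-square per degree of freedom 5.17 to 17.6) and were counted as separate samples. Of 22147 genes with a count above 0, filterByExpr left 13007, and the genes removed held 0.226% of counts. TMM factors (0.930 to 1.08), glmQLFit and glmQLFTest of edgeR 4.0.16 in R 4.3.3 were used, with genotype as the only term and Benjamini-Hochberg adjustment over all genes tested. A gene was called at an adjusted p under 0.05. The SE is the size of the log2 fold change divided by the square root of F. The 95% intervals use the total degrees of freedom of the same fit, which are the prior and residual ones together. The procedure was tested on simulated data.

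Members were found by symbol. Positions and promoters come from RefSeq (GRCm38.p6), exons and transcripts from GENCODE M21, and sequences were aligned with Biopython 1.88. Members and lists were chosen with earlier results of these data known. In each class the called members with a mean of at least 1 CPM are given in every library, up to 8 by p, and any that moved against their class. Members not called with a mean of at least 50 CPM are given too, and from each other list up to 3 called genes of lowest p, or the 2 of highest mean where fewer than 2 were called (a single called gene of a list is named as well). A result that this rule would name is not reported here. Alternatives were RLE or upper-quartile factors, library totals only, DESeq2 1.42.0, limma-voom (limma 3.58.1), a replicate block, a mean of at least 5 CPM, no low-count filter, and leaving out each library in turn.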

Additional observations from a re-analysis of the deposited data

How the results depend on the processing

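Of the 19 members called, 15 kept their call under all 14 alternatives, and no called member changed direction. Acad12 and Acadsb lost theirs under 7 settings each, Acss2os under 3 (without AKO replicate 1, WT replicate 1 or WT replicate 3) and Acadm under 2 (without WT replicate 2 or 3). Of the members not called, Acss2 passed as higher under 8 settings and Acot9 under 4, and Acad11 passed as lower under 4, Acss3 under 2 and Acad9 under 1. The number of members higher in AKO was 5 with upper-quartile factors, 5 with library totals only, 5 with no low-count filter and 5 with a mean of at least 5 CPM, against 3; without the filter the added members were Acss2 and Acsl6, and under the other 3 settings Acss2 and Acot9. The cause was not tested. Library totals only moved the median of all genes to 0.10, and 65.2% of calls over all genes were then higher, against 53.6%. Leaving out each library in turn gave 13 to 19 members lower and 2 to 4 higher, with a median over members of -0.52 to -0.31. With the replicate block, 17 members were lower and 4 higher. Libraries with the same number correlated at -0.02, 0.01 and 0.17 in their deviations. AKO replicate 1 correlated better with another number (0.18), AKO replicate 2 barely so (0.03), and AKO replicate 3 best with its own. With 3 libraries per genotype, these values cannot decide whether the numbers pair the samples. DESeq2 called 16 members lower and 3 higher. The 8 members without a test had at most 10 reads in any library, and at this depth the low-count filter left them out.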
